A study of Homo sapiens with 2 samples.

Results

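Desmosome genes encode the proteins of the desmosome, a junction that ties the keratin filaments of one epithelial cell to those of its neighbor. The 10 genes described here were chosen by symbol: the desmosomal cadherins DSG2, DSG3, DSC2 and DSC3, the plakophilins PKP1, PKP2 and PKP3, the plakoglobin gene JUP, the desmoplakin gene DSP, and PERP. All 10 were found among the 60616 genes of the deposited tables. They were measured by RNA sequencing in HSC-3 cells, an established line of tongue squamous cell carcinoma, grown in DMEM with fetal bovine serum. One group received the vehicle DMSO at 0.1%, and the other received 1 µM FIN56, with the duration of 48 h labelled for the FIN56 group. FIN56 induces ferroptosis, a form of cell death driven by lipid peroxidation, by promoting loss of the lipid peroxidase GPX4. Each group held 1 library, of 70184517 (DMSO) and 73062209 (FIN56) expected counts, so no difference has a replicate check and no test between the treatments was possible. The intervals given with the values are exact 95% intervals of counting error. They compare these 2 libraries rather than the treatments, and reads amplified by PCR with no molecular identifier do not each stand for a separate molecule. Fewer cells of one kind and less RNA per cell cannot be told apart in such bulk samples.

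In a desmosome, the extracellular parts of desmogleins and desmocollins from adjacent cells bind each other in the presence of calcium. Their cytoplasmic tails bind plakoglobin and the plakophilins, which belong to the armadillo family, and these in turn bind desmoplakin, which holds the keratin filaments. Squamous epithelia are rich in desmosomes because they bear mechanical load, and keratinocytes change the desmosomal isoforms they make as they move from the basal to the upper layers.

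The cells carried the marks of squamous epithelium in both libraries. All 10 markers of that lineage, keratins and TP63 among them, reached an FPKM of 1 (FPKM is the fragment count scaled for transcript length and library size), and their summed FPKM was 6113 in DMSO and 5574 in FIN56. Of the 7 fibroblast markers, 1 reached an FPKM of 1 in both libraries, COL1A1, at 4.25 in DMSO and 2.19 in FIN56, and COL1A2 was listed at 0 in both. The summed FPKM of the fibroblast list was 5.26 and 3.03, and that of the 4 endothelial markers was 0.10 and 0.11. The summed FPKM of the 5 immune markers was 60.9 in DMSO and 29.7 in FIN56, of which CD68, a lysosomal protein also made outside macrophages, gave 57.3 and 24.6. CD14 went the other way, at 3.62 FPKM in DMSO and 5.15 FPKM in FIN56. PTPRC, CD3E and MS4A1, which define leukocytes, T cells and B cells, were listed at 0 in both libraries.

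Between the treatments, the desmosome genes differed little in size but not all one way. The ratio of FPKM, FIN56 over DMSO, was above 1 for 8 genes, from 1.06 for DSP to 1.34 for DSC2, and below 1 for 2 genes, JUP at 0.857 and PKP3 at 0.782. All 4 cadherins, PKP1, PKP2, DSP and PERP lay on the higher side. The genes fell on both sides within the armadillo group, with PKP1 and PKP2 higher and PKP3 and JUP lower. The median log2 ratio of the 10 genes was 0.24, a ratio of 1.18, beside a median log2 ratio of 0.03 over the 12638 genes at or over 1 FPKM in each library. No desmosome gene reached a ratio of 1.5, the study's criterion for a higher gene, and none was at or under 1/1.5. Among the 24454 genes above 0 in both libraries, 14.7% reached 1.5 and 17.3% were at or under 1/1.5, and among those with an FPKM of at least 1 these shares were 3.87% and 6.77%.

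**Figure D1:**
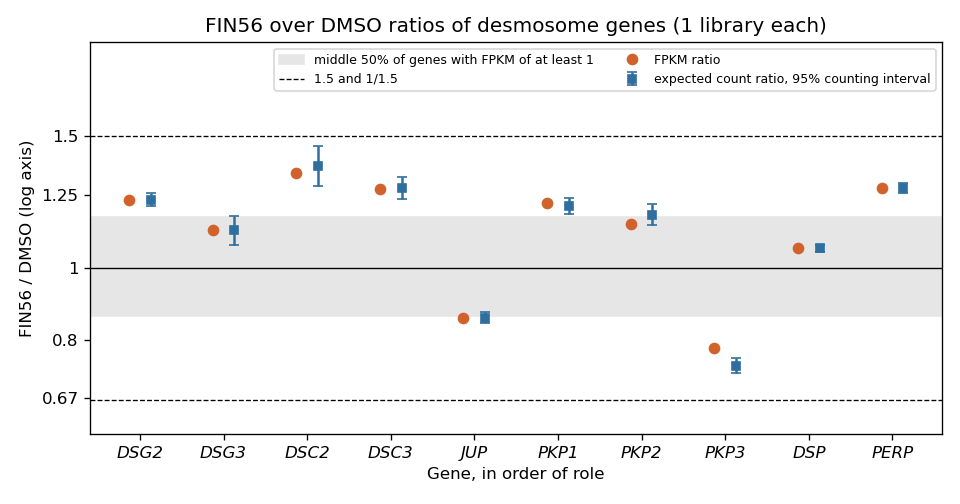
FPKM ratio of each desmosome gene, FIN56 over DMSO, on a log axis, with the ratio of scaled counts and its 95% counting interval. DSC2 lies highest at 1.34 and PKP3 lowest at 0.782, and none of the 10 genes reaches the lines at 1.5 and 1/1.5.

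With counts this deep, the counting intervals were narrow. The interval of the count ratio, scaled by library totals, lay above 1 for 8 desmosome genes and below 1 for 2. Over all genes with an FPKM of at least 1, 38% had an interval above 1 and 35.9% one below 1, so an interval that excludes 1 was common in these libraries. An FPKM ratio above 1, in turn, was seen in 53.5% of those genes. Placed within the ratios of the same genes, whose quartiles were 0.864 and 1.17, 5 desmosome genes lay above the upper quartile and 2 below the lower one.

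The desmogleins form the outer adhesive core together with the desmocollins. DSG2, the most widely expressed desmoglein, had 42.6 FPKM in DMSO and 52.5 FPKM in FIN56, from 16698 and 21440 expected counts. DSG3, the desmoglein of the lower layers of stratified epithelia and an autoantigen of pemphigus vulgaris, had an FPKM of 9.42 and 10.6, from 3625 and 4234 counts. Both were higher in the FIN56 library, DSG2 by a ratio of 1.23 and DSG3 by 1.12, with count ratios of 1.23 (95% interval 1.21 to 1.26) and 1.12 (1.07 to 1.17). The ratio of DSG2 to DSG3 counts was 4.61 in DMSO and 5.06 in FIN56, a change of 1.10 (95% interval 1.05 to 1.15). The other desmogleins were close to absent. DSG1, the desmoglein of differentiated layers, had 18.1 and 28 counts, an FPKM ratio of 2.50 with a count ratio of 1.49 (0.798 to 2.87), whose interval includes 1. DSG4 had 0 in both libraries, where a count of 0 allows up to 3 by a 1-sided 95% bound.

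The desmocollins DSC2 and DSC3 gave the largest ratios of the 4 cadherin members. DSC2, the desmocollin found in nearly all tissues with desmosomes, had 4.89 FPKM in DMSO and 6.55 FPKM in FIN56, from 1771 and 2520 counts. DSC3, which is strong in basal layers, had an FPKM of 11.9 and 15.2, from 5845 and 7788 counts. The FPKM ratios were 1.34 and 1.27, and the count ratios were 1.37 (1.29 to 1.45) for DSC2 and 1.28 (1.24 to 1.32) for DSC3. The ratio of DSC2 to DSC3 counts was 0.303 in DMSO and 0.324 in FIN56, and its change of 1.07 had an interval of 0.996 to 1.14, which includes 1. DSC1, the desmocollin of the uppermost layers, had 9 counts in DMSO and 13 in FIN56, too few to place.

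Summed per family on the TPM scale, which corrects for length, the desmogleins stood at 77.9 in DMSO and 96.7 in FIN56, and the desmocollins at 25.2 and 33.3. The isoform make-up within each family moved less than the sums. DSG2 held 81.8% of desmoglein TPM in DMSO and 83.0% in FIN56, and DSG3 held 18.1% and 16.7%. DSC3 held 70.8% and 69.7% of desmocollin TPM, and DSC2 held 29.0% and 30.1%. The desmogleins exceeded the desmocollins by 3.09 times in DMSO and 2.90 times in FIN56.

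The 4 cadherin members lie in 1 cluster on chromosome 18. In GRCh38 with the GENCODE 44 annotation, DSC3 spans 30989365 to 31042815 and DSC2 spans 31058840 to 31102522, both on the minus strand. DSG3 spans 31447741 to 31478702 and DSG2 spans 31498177 to 31549008, both on the plus strand. Between these pairs lie DSC1, DSG1 and DSG4, the cadherins with few or no counts. The expressed genes thus occupied the ends of the cluster, and the 3 nearly silent genes its middle, in both libraries. Antisense genes of the cluster also had few counts, with DSG2-AS1 at 26.1 in DMSO and 16.2 in FIN56, DSG1-AS1 at 8.92 and 16, and DSCAS at 1 and 1.

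The sequences before the starts of the 4 expressed cadherin genes and of PERP, the non-cadherin gene with the largest ratio, are shown to compare the promoters of genes that were all higher in FIN56. They come from RefSeq on GRCh38.p14, read 5′ to 3′ on the strand of the gene, and leave out annotated exons. Capitals mark matches on either strand to AP-1 (TGANTCA), to an E-box (CAGGTG) and to a GC box (GGGCGG). The stretches are chr18:31497927-31498176 (plus strand) for DSG2, chr18:31447491-31447740 (plus) for DSG3, chr18:31102523-31102671 (minus) for DSC2, chr18:31042816-31042992 (minus) for DSC3 and chr6:138107420-138107669 (minus) for PERP.
DSG2: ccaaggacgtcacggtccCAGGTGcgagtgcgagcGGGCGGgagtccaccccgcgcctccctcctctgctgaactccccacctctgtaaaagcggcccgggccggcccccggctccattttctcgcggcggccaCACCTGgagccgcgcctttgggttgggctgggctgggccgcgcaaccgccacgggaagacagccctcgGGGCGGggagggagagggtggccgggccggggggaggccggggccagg
DSG3: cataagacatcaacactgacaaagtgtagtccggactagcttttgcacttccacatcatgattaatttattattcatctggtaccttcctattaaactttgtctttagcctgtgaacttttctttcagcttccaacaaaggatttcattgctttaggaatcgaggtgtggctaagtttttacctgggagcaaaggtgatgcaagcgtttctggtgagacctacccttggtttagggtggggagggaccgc
DSC2: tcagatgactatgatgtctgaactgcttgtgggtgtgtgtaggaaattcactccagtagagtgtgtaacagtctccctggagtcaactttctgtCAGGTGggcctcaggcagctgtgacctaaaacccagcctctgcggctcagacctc
DSC3: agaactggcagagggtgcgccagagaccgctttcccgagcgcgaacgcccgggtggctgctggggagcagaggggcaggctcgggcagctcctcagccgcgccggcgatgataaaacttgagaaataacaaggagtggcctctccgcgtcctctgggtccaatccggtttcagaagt
PERP: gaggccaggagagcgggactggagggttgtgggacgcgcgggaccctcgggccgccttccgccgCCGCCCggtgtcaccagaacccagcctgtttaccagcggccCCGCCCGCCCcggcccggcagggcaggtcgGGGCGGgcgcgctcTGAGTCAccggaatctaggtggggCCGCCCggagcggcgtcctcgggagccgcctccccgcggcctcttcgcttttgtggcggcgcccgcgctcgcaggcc

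The 5 promoters had little in common at the level of these letters. In the full RefSeq windows of 250 bases before and 50 after the start, the GC content was 76.7% for DSG2 and 77.0% for PERP, against 44% for DSG3, with 60.7% for DSC2 and 63.3% for DSC3. DSG2 held 2 E-boxes and 2 GC boxes. DSC2 held 1 E-box and 1 GC box, and the latter falls outside the stretch printed. PERP held 1 AP-1 match and 5 GC boxes, of which 2 overlap, and neither DSG3 nor DSC3 held any of the 3 motifs. Over all 35116 RefSeq windows of that length, 7.71% held the AP-1 motif, 20.6% the E-box and 45.0% the GC box. A p53-family half-site was matched once each in DSG3 and DSC3 and in 6.63% of all windows. The TATA box TATAAA and the grainyhead motif AACNGGTT, found in 11.5% and 1.73% of all windows, were matched in none of these 5. Promoter windows were matched for 8 of the 10 genes, and PKP2 and PKP3 were unmatched. JUP, the matched gene that was lower in FIN56, held 3 GC boxes. The higher genes DSP and PKP1 held 8 and 1, and DSP also held 2 E-boxes. The 5 printed were chosen as higher genes, so they do not compare higher with lower genes. A match is a run of letters, not a measured binding site.

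The plakophilins, which cluster desmosomal proteins beneath the membrane and also occur in the nucleus, split between the treatments. PKP3, the plakophilin of most simple and stratified epithelia, had 113 FPKM in DMSO and 88.5 FPKM in FIN56, from 17194 and 13249 counts. PKP1, most abundant in the upper layers of stratified epithelia, had an FPKM of 31.8 and 38.9, from 10541 and 13272 counts. PKP2, the main plakophilin of the heart and also made in epithelia, had an FPKM of 30.7 and 35.2, from 7174 and 8798 counts. PKP3 alone of the 3 was lower in FIN56, with an FPKM ratio of 0.782 against 1.22 for PKP1 and 1.14 for PKP2. The count ratios were 0.740 (0.724 to 0.757) for PKP3, 1.21 (1.18 to 1.24) for PKP1 and 1.18 (1.14 to 1.22) for PKP2.

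PKP3 was the most abundant plakophilin per length in both libraries, but by less in FIN56. PKP3 held 64.4% of plakophilin TPM in DMSO and 54.4% in FIN56, while PKP1 held 18.1% and 23.9% and PKP2 held 17.5% and 21.6%. By counts, PKP3 held 49.3% (exact interval 48.7 to 49.8) and 37.5% (37.0 to 38.0). Ratios of counts within a library need no scaling between libraries, and that of PKP3 to PKP1 was 1.63 in DMSO and 0.998 in FIN56, a change of 0.612 (0.591 to 0.633). The PKP3 to PKP2 ratio was 2.40 and 1.51, a change of 0.628 (0.605 to 0.653). The PKP1 to PKP2 ratio, at 1.47 and 1.51, changed by 1.03 with an interval of 0.986 to 1.07. PKP3 thus parted from both other plakophilins, whose ratio to each other stayed within counting error by counts. By FPKM, the ratio was 1.22 for PKP1 and 1.14 for PKP2. The summed TPM of the 3 genes was 262.8 in DMSO and 248.5 in FIN56.

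**Figure D2:**
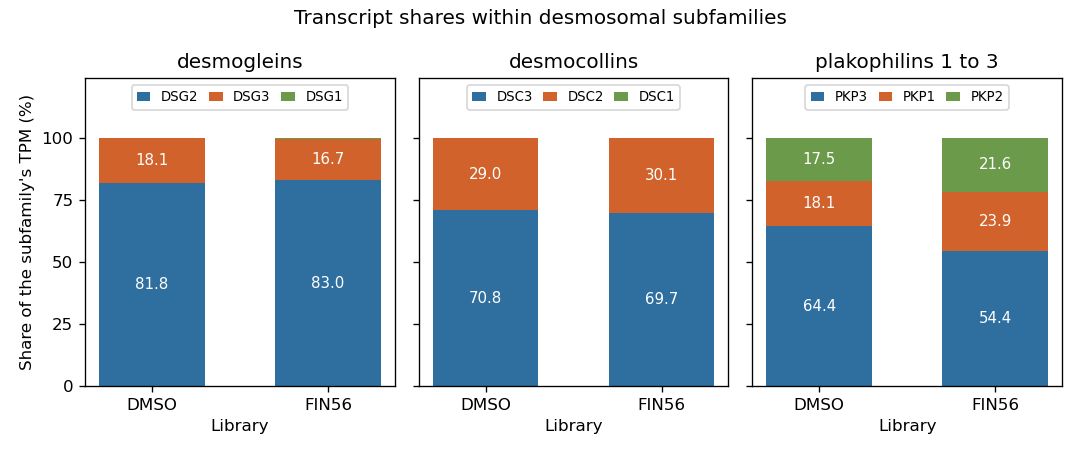
Share of each gene in the summed TPM of the desmogleins, desmocollins and plakophilins, in percent, in the DMSO and FIN56 libraries. The plakophilin bars differ most, with PKP3 at 64.4% and 54.4%, while the desmoglein and desmocollin bars differ by a few percentage points or less.

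JUP encodes plakoglobin, a relative of β-catenin that serves both desmosomes and adherens junctions. Its FPKM was 128 in DMSO and 110 in FIN56, from 26290 and 23479 counts, a ratio of 0.857 with a count ratio of 0.858 (0.843 to 0.873). It was the most abundant desmosome gene per length in DMSO and the next after PERP in FIN56. The β-catenin gene CTNNB1 had an FPKM of 117 and 121, and the count ratio of JUP to CTNNB1 was 1.07 in DMSO and 0.883 in FIN56, a change of 0.825 (0.805 to 0.846). JUP was also lower relative to the cadherins that its product binds: the count ratio of DSG2 to JUP was 0.635 and 0.913, and that of DSC3 to JUP was 0.222 and 0.332. The summed TPM of JUP and the plakophilins was 454.8 and 416.6, that of the cadherin genes 103.1 and 130.0, and the former exceeded the latter by 4.41 times in DMSO and 3.20 times in FIN56.

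DSP encodes desmoplakin, the plakin that joins the desmosome to keratin. Its FPKM was 85.9 in DMSO and 91.4 in FIN56, from 54874 and 60675 counts, the highest counts of the 10 genes. The FPKM ratio of 1.06 was the nearest to 1 in the group, with a count ratio of 1.06 (1.05 to 1.07), and 58.1% of genes with an FPKM of at least 1 had a lower ratio. The count ratio of JUP to DSP was 0.479 and 0.387, a change of 0.808 (0.791 to 0.825), and that of DSP to PLEC, which encodes the plakin plectin of hemidesmosomes, was 0.929 and 1.07, a change of 1.15 (1.13 to 1.17).

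PERP encodes a membrane protein with several spans that is needed for desmosome assembly in stratified epithelia and is a target of p53 and p63. Its FPKM was 107 in DMSO and 137 in FIN56, from 30782 and 40975 counts, a ratio of 1.28 with a count ratio of 1.28 (1.26 to 1.30). PERP stood behind JUP and PKP3 in DMSO and above both in FIN56. The count ratio of PERP to DSP was 0.561 and 0.675, a change of 1.20 (1.18 to 1.23). TP63, which encodes p63, had an FPKM of 85.6 and 92.6.

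**Figure D3:**
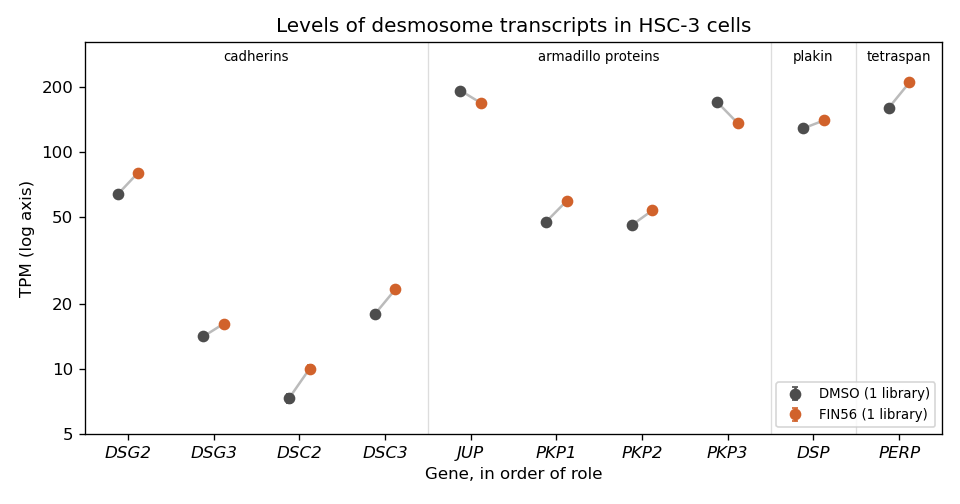
TPM of each desmosome gene in the DMSO and FIN56 libraries on a log axis, 1 point per library, with 95% counting intervals smaller than the points. JUP is highest in DMSO at 192 and PERP in FIN56 at 209, while DSC2 is lowest in both libraries.

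The order of the levels by TPM was, in DMSO, JUP, PKP3, PERP, DSP, DSG2, PKP1, PKP2, DSC3, DSG3 and DSC2. In FIN56 the first 4 became PERP, JUP, DSP and PKP3, and the other 6 stood in the same order. The intervals of PKP1 (46.7 to 48.5 TPM) and PKP2 (44.9 to 47.0 TPM) overlapped in DMSO, and no other neighbors did. These intervals hold the length fixed, so they leave out any error of the length model. Over all 10 genes the summed TPM was 846 in DMSO and 895 in FIN56, a ratio of 1.06, so the sum moved less than most of its parts. The genes held 0.249% and 0.269% of all counts.

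The split followed base composition in these 10 genes. The genes with the lowest GC content in their transcripts, DSC2 (39.0%), DSC3 (39.2%) and PERP (40.4%), had the largest ratios, and those with the highest, PKP3 (66.7%) and JUP (61.5%), had the smallest. PKP1 departed from this order, with a ratio of 1.22 at 56.3% GC. Over the 10 genes, the log2 ratio and the GC content had a Pearson r of -0.88 and a Spearman rho of -0.90, against -0.14 and -0.16 over the 15729 genes with at least 50 counts. These are descriptions across genes that share the same 2 libraries. Within 10 bins of GC content, the median log2 ratio of all genes ran from 0.11 in the lowest bin to -0.10 in the highest. Against the quartiles of their own GC bin, 5 desmosome genes (DSG2, DSC2, DSC3, PKP1 and PERP) lay above the upper one and 5 lay inside, among them PKP3 and JUP. After centring on GC content and transcript length, a step chosen after seeing the data, 8 genes were above 1 and 2 below, with PKP3 at 0.826, JUP at 0.888 and DSC2 highest, at a log2 ratio of 0.33. The log2 ratio and the GC content of the 10 genes then had a Pearson r of -0.80 and a Spearman rho of -0.73. Over the 15729 genes these were -0.007 and 0.013, which the centring itself brings near 0. The part of base composition in the differences was not tested.

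**Figure D4:**
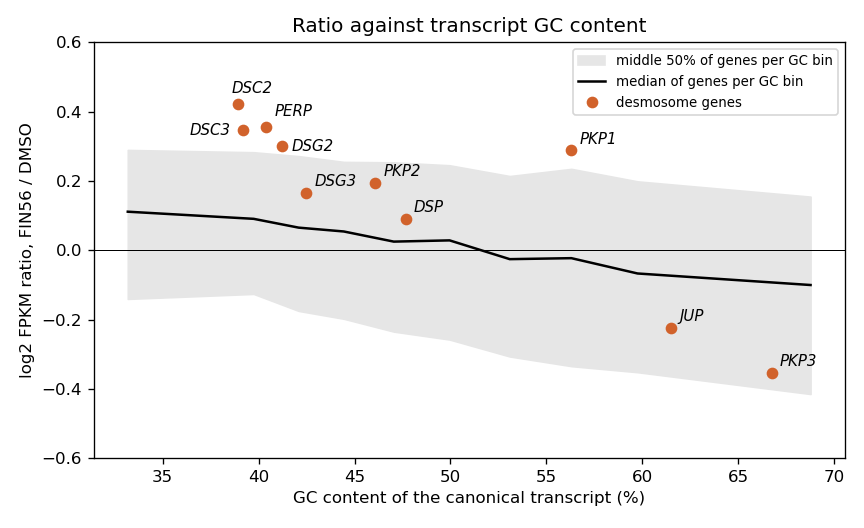
log2 FPKM ratio, FIN56 over DMSO, against the GC content of the transcript in percent for the 10 desmosome genes, with the median and quartiles of all genes in 10 GC bins. The bin medians decline from 0.11 to -0.10, and the desmosome genes range from DSC2 at 0.42 to PKP3 at -0.35.

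The FPKM and count ratios of most desmosome genes were close, but PKP3 and PKP2 differed between the scales. The effective length that FPKM divides by, which depends on the mix of transcripts, had a FIN56 over DMSO ratio of 0.949 for PKP3 and 1.03 for PKP2, against values from 0.993 to 1.02 for the other genes. PKP3 was therefore lower by counts (0.740) than by FPKM (0.782), and PKP2 higher by counts (1.18) than by FPKM (1.14). Expected counts were whole numbers in both libraries for 7 of the 10 genes, as they are where no read is divided among genes. DSG2 and PKP2 had fractional counts in both libraries and PERP in DMSO.

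Other junction genes were compared through lists written from general knowledge with earlier results of these data known. Their counts stand beside a share of 53.5% with a ratio above 1 among all genes with an FPKM of at least 1. Of 11 adherens junction genes, 9 had a ratio above 1 and 2 below, with a median log2 ratio of 0.09. VCL, which encodes the actin linker vinculin, was the only one past 1.5, with 74.0 FPKM in DMSO and 115.8 FPKM in FIN56 and a count ratio of 1.60 (1.58 to 1.62). The cadherin gene CDH3 (116 and 125 FPKM) had a ratio of 1.07, with a count ratio of 1.11 (1.09 to 1.13). The α-catenin gene CTNNA1 (142 and 146 FPKM) had a ratio of 1.03, with a count ratio of 0.993 (0.977 to 1.01). The 11 tight junction genes had a median log2 ratio of 0.12, with 9 above 1, among them the claudin gene CLDN1 at 38.0 and 50.5 FPKM, and 1 at or under 1/1.5, TJP3, which had under 100 counts. The 6 gap junction genes were split evenly, with a median log2 ratio of 0.01, which was -0.08 over the 5 with at least 100 counts and turned negative under 4 of the alternatives.

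Hemidesmosomes, which fix keratin to the basement membrane, gave a median log2 ratio of -0.07 over 6 genes, with 2 above 1 and 4 below, none past either threshold. The integrin gene ITGB4 had 194 FPKM in DMSO and 132 FPKM in FIN56, a ratio of 0.678 that was 0.651 by counts and so past 1/1.5 on that scale, while its partner ITGA6 had 182 and 211, a ratio of 1.16. Of the 8 keratin genes whose filaments desmosomes anchor, 4 were above 1 and 4 below. KRT19 was past 1/1.5, at 281 and 173 FPKM with a count ratio of 0.617 (0.605 to 0.629). The basal keratin KRT5 had an FPKM of 2078 and 1647, and its partner KRT14 had 1410 and 1352, a ratio of 0.959. KRT8, of simple epithelia, had 791 and 1045, and its partner KRT18 had 759 and 957. An even split of the keratin genes is near the share over all genes, since 53.5% of genes with an FPKM of at least 1 had a ratio above 1.

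Relatives of the desmosome genes by sequence family were listed as well. The desmosomal cadherins and plakophilin outside the 10 genes, DSG1, DSG4, DSC1 and PKP4, had a median log2 ratio of 0.42 over the 3 measured in both libraries, but only PKP4 reached an FPKM of 1, and its ratio was 0.977. The 6 plakins had a median log2 ratio of 0.02, with only EPPK1 (epiplakin) past 1.5, at an FPKM of 0.18 and 0.35 from 197 and 404 counts. The 4 measured armadillo relatives, with PKP4 at 26.2 and 25.6 FPKM, had a median of 0.01, which turned negative when counts were scaled by library totals or by TMM. The 4 measured relatives of PERP had a median log2 ratio of 0.09, and EMP3 was past 1/1.5, at 32.8 and 21.7 FPKM.

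Corneodesmosomes are the desmosomes of the cornified layer, and kallikrein proteases cleave them during shedding. Of 7 genes of this list, 4 were at or under 1/1.5 and none reached 1.5. Over all genes above 0 in both libraries, 17.3% were at or under 1/1.5. Among those with an FPKM of at least 1, the share was 6.77%. KLK5 had 71.7 FPKM in DMSO and 32.4 FPKM in FIN56, with a count ratio of 0.457 (0.438 to 0.476), and KLK8 had 13.6 and 6.13, with 0.420 (0.346 to 0.505). The other two, CDSN and KLK7, had under 100 counts. The membrane protease gene ST14, by contrast, had 32.6 and 43.9 FPKM. The list's median log2 ratio was -0.69, and -0.15 over the 5 genes with at least 100 counts, so the lower value rests on genes with few counts.

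Among 12 genes for the transport, turnover and signalling of desmosomes, 9 had a ratio above 1 and none passed either threshold. Of all genes with an FPKM of at least 1, 53.5% had a ratio above 1. The calcium pump gene ATP2A2, mutated in Darier disease, had an FPKM of 147 and 168, and the nuclear desmosome-associated protein gene PNN had 75.9 and 89.8. Of 15 genes for transcription factors of epithelial junctions, 8 were above 1 and 6 below. The grainyhead factor GRHL1 (1.40 and 2.13 FPKM) and ZEB1 (0.28 and 0.42 FPKM), a repressor of epithelial genes, reached 1.5, but their count ratios were 1.12 (0.964 to 1.30) and 1.04 (0.791 to 1.39), whose intervals include 1. The more abundant factor KLF5 (47.7 and 55.9 FPKM) had a ratio under 1.5. Among those below 1, ELF3 (27.7 and 20.4 FPKM) had a ratio of 0.737. Its count ratio of 0.647 (0.611 to 0.685) was past 1/1.5 on that scale.

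**Figure D5:**
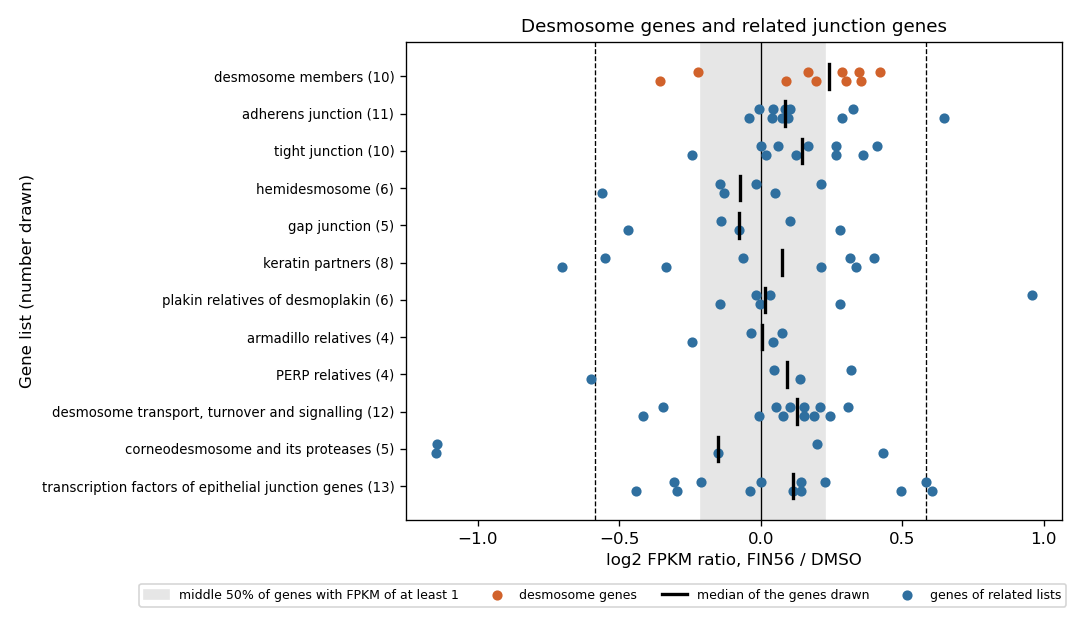
log2 FPKM ratio, FIN56 over DMSO, of the desmosome genes and of the related gene lists, 1 point per gene with at least 100 counts in the 2 libraries together, a bar at the median of the genes drawn and a band for the middle 50% of genes with an FPKM of at least 1. The desmosome genes lie between -0.35 and 0.42, while VCL, EPPK1, GRHL1 and ZEB1 lie on or above the line at a ratio of 1.5 and KLK5, KLK8, KRT19 and EMP3 below that at 1/1.5.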

How the data were processed

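The data were 1 RNA-seq library of HSC-3 cells per condition, prepared per the labels with the Illumina TruSeq Stranded mRNA kit. The study's methods describe tumor samples and are taken to hold here. By them and the submitters' processing notes, the authors trimmed reads with AfterQC 0.9.7, checked them with FastQC 0.11.7, aligned with STAR 2.6.1a to GRCh38 (Ensembl release 94) and quantified with RSEM 1.3.1. The strand setting is not given in the sources used here. The authors deposited expected counts without normalization, which need not be whole. FPKM and TPM, as deposited, are corrected for sequencing depth and for the effective length of a gene. The deposited rlog values are log2 values shrunken by DESeq2 1.26.0.

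The measure was the ratio of deposited FPKM, FIN56 over DMSO, taken where neither value was 0 and held against 1.5 and 1/1.5. Count ratios used expected counts scaled by library totals, and their exact Clopper-Pearson 95% intervals used rounded counts. Changes of ratios between genes used Woolf intervals. Scripts ran in Python 3.11.15 (numpy 2.4.6, scipy 1.17.1, pandas 2.3.3, matplotlib 3.10.9) and R 4.3.3 (edgeR 4.0.16, DESeq2 1.42.0) and were tested on simulated data. The effective length ratio was that of counts per FPKM, relative to the median of genes with at least 100 counts. Totals of 70184517 and 73062209 expected counts give intervals from 1.05 to 1.07 for DSP, but from 1.29 to 1.45 for DSC2. Of the 60616 identifiers, 60419 were found in GENCODE 44.

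The members and lists were chosen with earlier results of these data known. Named genes are all 10 members, list genes past a threshold with at least 100 counts in both libraries together, and otherwise at most 4 per list by mean TPM. Genes past a threshold with fewer counts, the nearly silent cadherin and antisense genes, ELF3 and CD14 were named after their values were seen. Alternatives were TPM, rlog, 3 scalings of counts, a pseudocount of 1 FPKM, a minimum FPKM of 1, a threshold of 2, and centring on GC content and length.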

Additional observations from a re-analysis of the deposited data

How the results depend on the processing

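No paired analysis was possible because DMSO and FIN56 have 1 library each, which also leaves no replicate to omit. All 10 genes kept their direction under every alternative run. The median log2 ratio of the 10 genes, 0.24 by FPKM, was 0.12 by rlog, which shrinks differences, 0.29 by median-of-ratios scaling, and 0.18 after centring on GC content and length, an alternative chosen after seeing the data. The other alternatives gave 0.23 to 0.27. The counts at or past 1.5 and 1/1.5 were 0 under each alternative run, the threshold of 2 included. The medians of 2 related lists changed sign. The median of the armadillo relatives, 0.0056 by FPKM, was -0.020 by library totals and -0.022 by TMM. That of the gap junction genes, 0.014 by FPKM, was -0.0078 by rlog, -0.067 by library totals, -0.069 by TMM and -0.031 by median of ratios. The cause was not tested. Depth limits only genes with few counts, such as DSG1 and DSC1, whereas the single library per condition limits all genes.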
